A study of Mus musculus with 6 samples.

Results

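The genes described here are 35 genes of the cardiac sarcomere, the contractile unit of heart muscle, and of the Z-disc that bounds it, among 21506 genes measured in mouse left ventricle. They were taken from a fixed list of symbols. A row of the deposited table stood for a gene where the array annotation gave it exactly 1 of these symbols, and the brightest row by its mean over the 6 arrays was used where a gene had several. All 35 genes had such a row, 32 of them 1 row and 3 of them (Xirp2, Trim54 and Ckm) 2 rows.

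Total RNA from the left ventricle of 3 sickle and 3 control male mice, 10 to 14 weeks old, was measured on Affymetrix Mouse Gene 2.0 ST microarrays, with an array for each mouse. Sickle mice were homozygous for Hbbtm2(HBG1,HBB*)Tow, an engineered beta-globin allele that gives human sickle haemoglobin. Control mice carried 2 copies of Hbbtm3(HBG1,HBB)Tow, its non-sickling counterpart. Both groups also carried the human alpha-globin allele Hbatm1(HBA)Tow on a mixed B6;129 background, so the control mouse is not a wild-type mouse. Electrocardiograms, arrhythmia induction and optical mapping were also done in the study, but the sources used here do not say whether these 6 hearts had been through them. The series asks how the sickle ventricle differs from that of the control mouse.

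The sarcomere shortens when myosin heads of the thick filament pull on actin of the thin filament. Calcium binding to troponin C moves troponin and tropomyosin off the myosin binding sites of actin. Thin filaments of neighbouring sarcomeres are anchored and crosslinked in the Z-disc, thick filaments are crosslinked in the M-band, and titin runs from one to the other as a spring. In heart muscle the Z-disc also holds proteins that sense stretch, and mutations in many of these genes cause inherited cardiomyopathy.

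The promoters show a sequence feature that the list of symbols did not use. RefSeq windows on mouse build GRCm38.p6, from 250 bases before to 50 bases after each annotated start, matched 30 of the 35 genes with 41 windows, since 8 genes had more than 1 start. The CArG box, bound by serum response factor, lay in at least 1 window of 5 of the 30 genes (16.7%: Actc1, Ldb3, Myl3, Myom1 and Nebl) against 1.81% of all 27025 genes with a window. A MEF2 box lay in 4 of 30 (13.3%: Mybpc3, Myoz2, Ttn and Xirp2) against 3.70%. The M-CAT element CATTCC lay in 11 of 30 (36.7%) against 16.6%, and the E-box CAGCTG in 12 of 30 (40.0%) against 18.3%. TATAAA lay in 6 of 30 against 15.7%. Both strands were searched, and the 5 patterns were counted separately where they overlap. A match is a description of letters only. Genes with more windows have more chances of a match, and per window the CArG box was in 14.6% of the 41 windows against 1.63% of all 32851.

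Windows of 4 members are shown because they cover 2 thin filament genes whose groups did not overlap (Actc1, lower in sickle, and Lmod2, higher), a thick filament gene (Myl3) and a Z-disc gene (Ldb3). They read 5′ to 3′ on the strand of the gene, and capitals mark matches of the 5 patterns. The window of Actc1 is chr2:114052826-114053125, minus strand, with the CArG box beginning 47 bases before the annotated start and TATAAA beginning at base 34 after it. The window of Lmod2 is chr6:24597521-24597820, plus strand, with the E-box beginning at base 1. That of Myl3 is chr9:110763428-110763727, plus strand, with M-CAT matches beginning 177 and 149 bases before the start, the former on the opposite strand, and the CArG box 85 bases before it. That of Ldb3 is chr14:34588632-34588931, minus strand, 1 of its 2 overlapping windows, with the CArG box 35 bases before the start.
Actc1: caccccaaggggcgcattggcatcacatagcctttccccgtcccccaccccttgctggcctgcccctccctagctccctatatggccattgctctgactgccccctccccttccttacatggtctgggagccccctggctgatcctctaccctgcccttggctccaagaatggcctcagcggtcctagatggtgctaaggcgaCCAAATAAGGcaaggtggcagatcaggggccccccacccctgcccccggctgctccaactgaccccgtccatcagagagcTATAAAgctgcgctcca
Lmod2: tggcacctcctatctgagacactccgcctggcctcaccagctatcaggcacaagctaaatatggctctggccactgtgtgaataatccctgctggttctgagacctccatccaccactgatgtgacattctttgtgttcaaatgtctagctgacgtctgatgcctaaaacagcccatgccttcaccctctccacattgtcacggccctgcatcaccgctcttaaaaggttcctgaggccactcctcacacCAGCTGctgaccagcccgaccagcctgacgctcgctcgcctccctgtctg
Myl3: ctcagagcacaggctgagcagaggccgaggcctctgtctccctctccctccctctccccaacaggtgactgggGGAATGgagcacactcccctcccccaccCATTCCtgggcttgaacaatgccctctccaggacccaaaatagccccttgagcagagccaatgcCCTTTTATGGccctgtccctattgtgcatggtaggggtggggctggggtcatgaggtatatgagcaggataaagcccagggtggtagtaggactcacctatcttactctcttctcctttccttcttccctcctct
Ldb3: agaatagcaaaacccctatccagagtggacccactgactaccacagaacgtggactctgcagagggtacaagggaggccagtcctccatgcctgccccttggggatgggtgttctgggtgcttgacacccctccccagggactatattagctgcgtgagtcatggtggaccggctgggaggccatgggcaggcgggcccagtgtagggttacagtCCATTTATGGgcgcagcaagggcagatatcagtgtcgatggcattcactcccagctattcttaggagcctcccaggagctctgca

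The tissue carried the label of left ventricle, and its cardiomyocyte markers were bright. Of 9 ventricular cardiomyocyte markers, all were measured, with single values from 8.37 to 13.46 on the log2 scale. Skeletal muscle markers were dim (12 of 12 measured, 3.16 to 6.42), as were adipocyte markers (6 of 7 measured, 3.22 to 5.44). Of 7 atrial markers, 4 had their highest value in control replicate 3, among them Sln and Myl7. These 2 stood at 8.08 and 7.75 there and at no more than 3.36 and 4.78 in the other arrays. Nppa was instead highest in sickle replicate 3, at 13.66, with 12.63 to 12.74 in control. Bmp10 was highest in control replicate 2 and Tbx5 in control replicate 1. The summed linear level of the atrial list was 7074 to 8110 in control and 8687 to 13487 in sickle. That sum mostly follows Nppa, by far the brightest gene of the list. Gene by gene, 5 of the 7 had a lower mean in sickle and 2 a higher one. Their median difference was -0.35, and -0.28 without sickle replicate 3. The 35 genes had means over the 6 arrays from 9.09 to 13.55, all above the upper quartile of the genes tested, which was 7.43 to 7.54 on the 6 arrays. The brightest, Tnnt2, reached 13.62, and the highest value of any gene was 13.93; whether the array compresses differences at that end was not tested.

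One array, sickle replicate 3, stood apart over all genes. Its score on the first principal component (43.9% of the variance) was 43.3, against -15.1 to -2.31 on the other 5 arrays. All 9 measured fibroblast and matrix markers and all 9 macrophage markers were higher there than on any other array, as were 7 of 10 smooth muscle and pericyte markers. The smooth muscle and pericyte markers summed to 10981 to 11571 in control and 12401 to 13470.1 in sickle, and 10 of 10 had a higher mean in sickle with and without that array, though 0 passed the test. The summed linear level of the fibroblast and matrix markers was 24779.5 on that array, 6858 to 7968 in control and 7610.0 and 7763 on the other sickle arrays. For macrophage markers the sum was 4537 on that array, 1782 to 1987 in control and 1993 and 2276 on the other sickle arrays. Red-cell markers (7 of 10 measured) summed to 783 to 897 in control and 2949 to 4930 in sickle. The ventricular cardiomyocyte markers summed to 40513 in sickle replicate 3 and to between 44650 and 45524 on the other 5 arrays. The part of these differences in the results below was not tested, and differences are given without that array too where leaving it out moved them by over 1.5 times or turned their sign. In a piece of tissue, fewer muscle cells and less RNA per muscle cell cannot be told apart.

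Transcripts of the sarcomere and Z-disc differed little between sickle and control ventricles. No member of the 35 passed the test over all genes (limma on log2 values, Benjamini-Hochberg adjusted p under 0.05, passed by 39 of 21506 genes or 0.181%), and the adjusted p of the members ran from 0.504 to 1. Differences, sickle minus control on the log2 scale, ran from -0.31 for Xirp1 to 0.29 for Xirp2, with a median of -0.05 against -0.0067 over all genes. The 95% interval of the difference lay within 1.5-fold in either direction for 33 of 35 members (94.3%), against 79.7% of all genes; the exceptions were Xirp2 (-0.03 to 0.60) and Pdlim5 (-0.38 to 0.60). The members also varied little among mice, with a median SD of 0.06 over the 3 control arrays against 0.12 over all genes. Over the 3 sickle arrays the median SD was 0.12 against 0.15. The members' means lay at percentiles 92.9 to 99.97 among all genes. The SDs and the share of intervals within 1.5-fold were thus set beside mostly dimmer genes. A comparison with genes of like level was not made.

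At an unadjusted p under 0.05 there were 2 members, Tcap and Xirp1, both lower (5.71%, against 8.69% of all genes in either direction and 4.38% lower), a share close to or below the background. Groups did not overlap for 9 members (25.7%, against 16.0% of all genes), 3 of them higher in sickle (Lmod2, Myom2 and Nrap) and 6 lower (Actc1, Ldb3, Tcap, Csrp3, Xirp1 and Trim54). In the 1-direction backgrounds, 7.61% of all genes were separated and higher and 8.36% separated and lower. Without sickle replicate 3, 0 members passed the adjusted test (0.0976% of all genes did), 2 had an unadjusted p under 0.05 (Myom2, higher, and Xirp1, lower, against 9.20% of all genes) and 15 did not overlap (42.9%, against 26.9%). With a variance that follows the mean level, 7 members had an unadjusted p under 0.05 (against 9.33% of all genes) and 0 passed the adjustment.

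**Figure D1:**
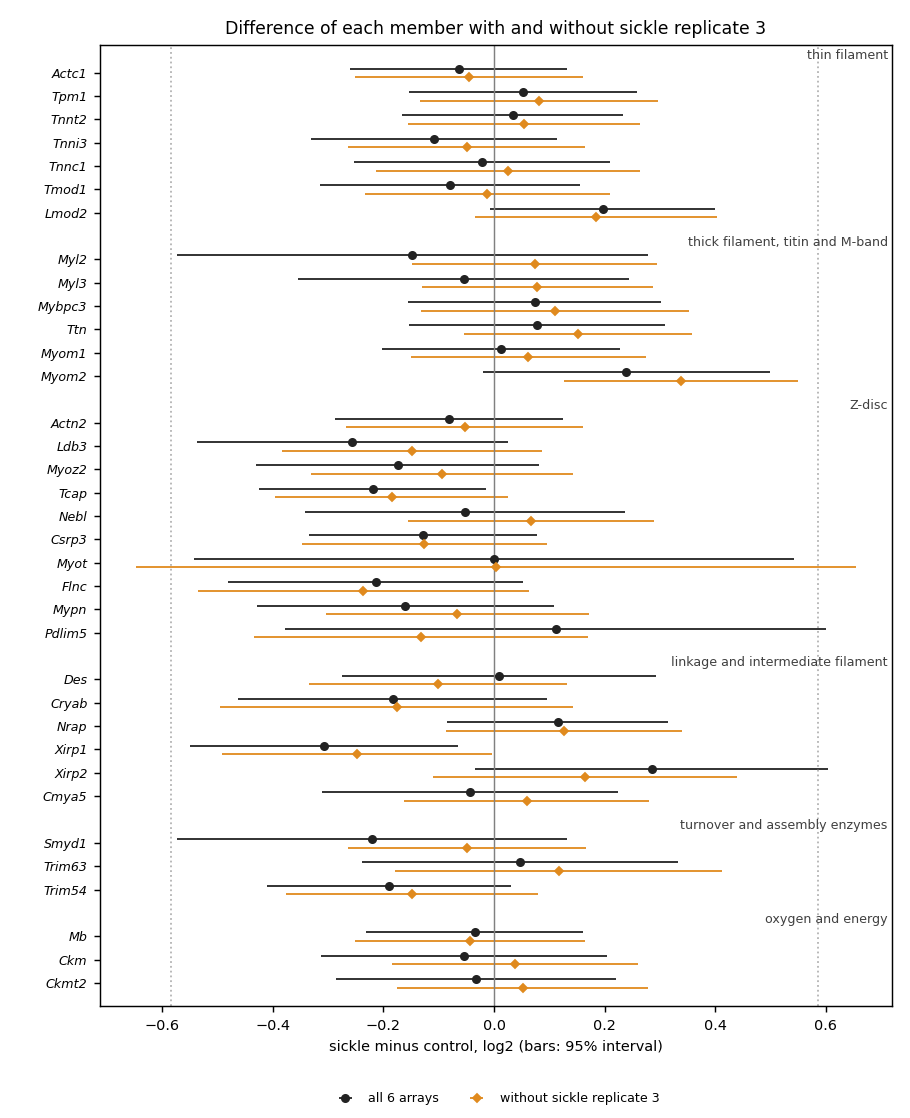
Sickle minus control log2 difference (horizontal axis) of each of the 35 genes, by role group, with all 6 arrays (black circles) and without sickle replicate 3 (orange diamonds); bars are 95% intervals from limma and dotted lines mark 1.5-fold. With 6 arrays the intervals of Tcap and Xirp1 leave out 0, and without that array those of Myom2 and Xirp1.

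Sickle replicate 3 held the lowest of the 6 values for 20 of the 35 members, where 28.3% of all genes had their lowest value there. It lay below the control mean for 29 members, against 18 for sickle replicate 1 and 20 for sickle replicate 2. Relative to the control mean, the median over the 35 genes was -0.0011 and -0.03 on sickle replicates 1 and 2 and -0.14 on replicate 3, and between -0.01 and 0.02 on the control arrays. Without that array the median difference of the members was 0.0034, and 17 of 35 were lower (48.6%, against 49.8% of all genes); with it, 23 of 35 were lower (65.7%, against 51.6%). The cardiomyocyte marker list moved the same way on that array, with a median of -0.18, and had 0.05 and 0.01 on sickle replicates 1 and 2.

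**Figure D2:**
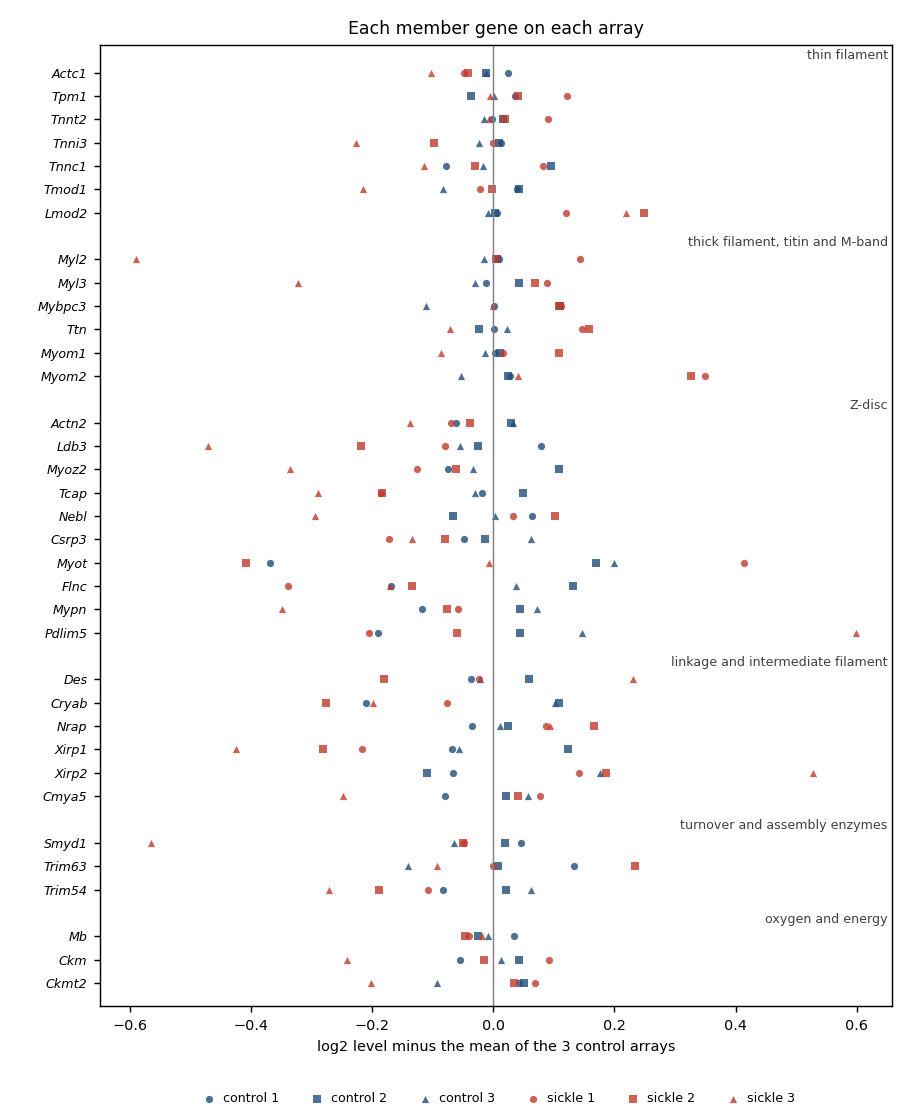
Log2 level of each of the 35 genes on each of the 6 arrays minus the mean of the 3 control arrays (horizontal axis); blue is control, red is sickle, and the shape gives the replicate number. Sickle replicate 3 (red triangles) is the lowest of 6 for 20 genes, and stands far below the other arrays for Myl2 and Smyd1 and far above them for Pdlim5 and Xirp2.

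The thin filament was measured by 7 genes, for which 3 had a higher and 4 a lower mean in sickle and 0 passed. Actin, troponin and tropomyosin transcripts differed from control by 0.11 or less on the log2 scale. The 1 gene that stood out was Lmod2, leiomodin 2, which lengthens thin filaments at their pointed ends. Its level was 12.05, 12.05 and 12.04 in control replicates 1, 2 and 3 and 12.17, 12.30 and 12.27 in sickle replicates 1, 2 and 3. All 3 sickle values were above all 3 control values. The difference was 0.20 ± 0.09 (SE, with a 95% interval of -0.0074 to 0.40 and limma adjusted p = 0.585) and 0.18 without sickle replicate 3.

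Tmod1, tropomodulin 1, caps the same pointed ends that leiomodin extends. It had 11.15 ± 0.07 in control and 11.07 ± 0.12 in sickle (SD, n = 3), a difference of -0.08 ± 0.10, and -0.012 without sickle replicate 3. The change of Lmod2 minus that of Tmod1, taken within each array relative to the control mean, was 0.14, 0.25 and 0.43 in sickle replicates 1, 2 and 3. In control it lay between -0.04 and 0.07. This pair, like the 2 pairs below, was chosen after its values were seen and has no test.

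Among the other thin filament genes, cardiac troponin T (Tnnt2) ties troponin to tropomyosin. Its level was 13.53, 13.55 and 13.51 in control and 13.62, 13.55 and 13.52 in sickle, so the groups overlapped (difference 0.03 ± 0.09, and 0.05 without sickle replicate 3). The inhibitory subunit troponin I (Tnni3) had 13.03, 13.02 and 12.99 in control and 13.01, 12.91 and 12.79 in sickle. Its lowest value was that of sickle replicate 3, and the difference of -0.11 ± 0.10 was -0.05 without that array. Cardiac actin (Actc1) had 13.51, 13.48 and 13.48 in control and 13.44, 13.45 and 13.39 in sickle. The groups did not overlap, although the difference was only -0.06 ± 0.08. Tpm1, alpha-tropomyosin, had a difference of 0.05 ± 0.09 and Tnnc1, the calcium-binding troponin C, -0.02 ± 0.10. Without that array these were 0.08 and 0.03. The median over the 7 genes was -0.02, and 0.03 without sickle replicate 3, so it gave no direction.

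The thick filament, titin and the M-band were measured by 6 genes, of which 0 passed, and their direction depended on sickle replicate 3. In sickle replicates 1 and 2 all 6 were above the control mean, while 5 of 6 were below it in replicate 3. The group's median stood at 0.13 and 0.11 on replicates 1 and 2, at -0.08 on replicate 3, and between -0.02 and 0.02 on the control arrays. With 6 arrays 4 genes were higher and 2 lower and the median difference was 0.04; without replicate 3 all 6 were higher and the median was 0.09. The groups then did not overlap for 4 of the 6 (Myl3, Ttn, Myom1 and Myom2), where 13.5% of all genes were separated and higher.

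Myom2, an M-band crosslinker of adult fast and cardiac muscle also called M-protein, had the largest difference of this group. Its level was 11.14, 11.14 and 11.06 in control and 11.46, 11.44 and 11.15 in sickle. Replicate 3 was only just above the highest control value, and the other sickle values were well above it. The difference was 0.24 ± 0.11 (95% interval -0.02 to 0.50, limma adjusted p = 0.596), and 0.34 (0.13 to 0.55, unadjusted p = 0.0072, adjusted p = 0.362) without replicate 3. Myom1, myomesin 1, the general M-band crosslinker, had a difference of 0.01 ± 0.09, and 0.06 without that array. The change of Myom2 minus that of Myom1 was 0.33, 0.22 and 0.13 in sickle replicates 1, 2 and 3. In control it lay between -0.04 and 0.03.

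Titin (Ttn) had 12.51, 12.48 and 12.53 in control and 12.66, 12.67 and 12.44 in sickle. Replicates 1 and 2 were above all control values and replicate 3 below all of them, and the difference was 0.08 ± 0.10, or 0.15 without replicate 3. Mybpc3, cardiac myosin-binding protein C, a brake on crossbridges, had 12.46, 12.57 and 12.35 in control and 12.57, 12.56 and 12.46 in sickle, which overlap (0.07 ± 0.10, and 0.11 without replicate 3).

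Of the 35 members, Myl2 showed the widest gap between a single array and the rest. This regulatory light chain of ventricular myosin had 9.17, 9.17 and 9.15 in control, 9.31 and 9.17 in sickle replicates 1 and 2, and 8.57 in replicate 3, which was 0.57 below the next lowest array. Its difference was -0.15 ± 0.18, and 0.07 without replicate 3. Myl3, the essential light chain whose promoter is shown above, had 11.87 ± 0.23 in sickle against 11.92 ± 0.04 in control (SD, n = 3). Its value of 11.60 in replicate 3 was 0.29 below the next lowest array, and its difference was -0.06 with that array and 0.08 without it.

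Z-disc genes had lower means in sickle for 9 of 10 members, counting Myot, whose difference was -3.6e-05, and 0 of 10 passed the test. The group median difference was -0.14 with 6 arrays and -0.11 without sickle replicate 3, when 8 of 10 were lower. Of the 6 role groups it alone had a median below -0.1 both with and without that array. Relative to the control mean the Z-disc median stood at -0.10, -0.08 and -0.23 in the 3 sickle arrays in order. In control it was -0.07, 0.04 and 0.04, so control replicate 1 lay close to sickle replicate 2. Below the control mean were 8, 9 and 9 of the 10 genes in sickle replicates 1, 2 and 3, and 8, 3 and 3 in control replicates 1, 2 and 3. The other 25 members had a median of -0.03, and 0.05 without sickle replicate 3; the difference between the 2 sets was not tested.

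Tcap (telethonin), a small protein that ties the ends of titin molecules together in the Z-disc, had 11.74, 11.81 and 11.73 in control and 11.57, 11.57 and 11.47 in sickle. All 3 sickle values were below all control values. The difference was -0.22 ± 0.09 (95% interval -0.43 to -0.01, unadjusted p = 0.039, limma adjusted p = 0.564), and -0.18 without sickle replicate 3.

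Ldb3, also called ZASP or cypher, which binds alpha-actinin and holds the Z-disc together under load, had the largest difference of the group. Its level was 10.91, 10.81 and 10.78 in control and 10.76, 10.62 and 10.36 in sickle. The groups did not overlap, but sickle replicate 1 lay just under the lowest control value. The difference of -0.26 ± 0.12 (adjusted p = 0.596) became -0.15 without replicate 3.

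Csrp3, muscle LIM protein, had 12.56 ± 0.06 in control and 12.43 ± 0.05 in sickle (SD, n = 3), again without overlap (-0.13 ± 0.09, and -0.13 without replicate 3). Actn2, sarcomeric alpha-actinin, which crosslinks the thin filaments themselves, had 12.54, 12.63 and 12.64 in control and 12.54, 12.57 and 12.47 in sickle. Those values overlapped (-0.08 ± 0.09, and -0.05 without replicate 3).

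Filamin C (Flnc), an actin crosslinker, had a difference of -0.21 ± 0.11, and -0.24 without replicate 3, though control replicate 1 lay among the sickle values. Myoz2, calsarcin 1, which binds calcineurin at the Z-disc, had -0.17 ± 0.11, and Mypn, myopalladin, had -0.16 ± 0.12. Without replicate 3 these were -0.09 and -0.07. Nebulette (Nebl) had -0.05 ± 0.12, and 0.07 without that array. Myot (myotilin) varied more among mice than any other member in control (SD 0.32), with 9.55 to 10.37 over the 6 arrays, and had a difference of 0.0034 without sickle replicate 3. Pdlim5, a PDZ and LIM protein also called ENH, was the 1 Z-disc gene with a higher mean (0.11 ± 0.21). It stood at 9.81 in sickle replicate 3 and at 9.002 to 9.35 on the other arrays, and its difference was -0.13 without that array.

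**Figure D3:**
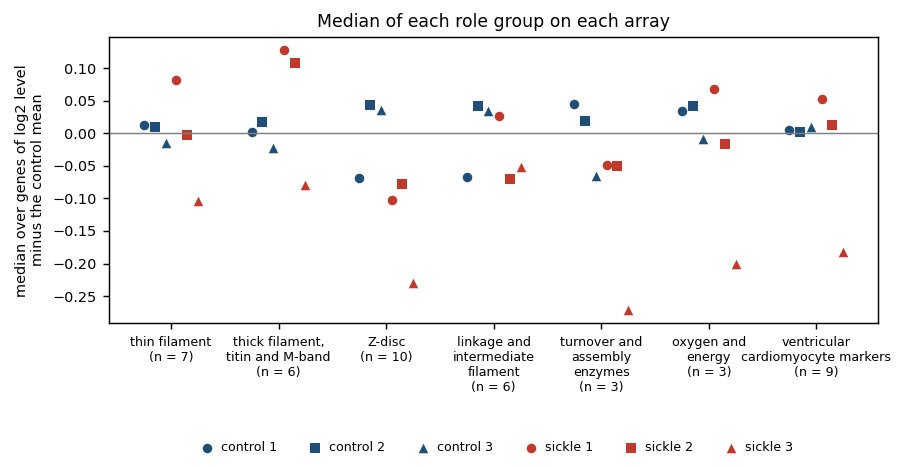
Median over the genes of each role group, and over 9 ventricular cardiomyocyte markers, of the log2 level minus the control mean (vertical axis) on each array; blue is control, red is sickle, and the shape gives the replicate number. The 3 sickle arrays are below 0 for the Z-disc (-0.10, -0.08 and -0.23), and sickle replicates 1 and 2 are above 0 for the thick filament group (0.13 and 0.11).

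Genes that link myofibrils to each other, to the intermediate filaments and to the intercalated disc had differences in both directions, and 0 of 6 passed. Xirp1 and Xirp2, the 2 Xin actin-binding repeat proteins of the intercalated disc and of remodelling myofibrils, had the lowest and the highest difference of all 35 members. Xirp1 had 9.99, 10.18 and 10.00 in control and 9.85, 9.78 and 9.64 in sickle. All sickle values were below all control values, with a difference of -0.31 ± 0.10 (95% interval -0.55 to -0.06, unadjusted p = 0.020, limma adjusted p = 0.504). It was -0.25 when sickle replicate 3 was left out (unadjusted p = 0.047; adjusted p = 0.536 in the same fit).

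Xirp2 had 10.996, 10.95 and 11.24 in control and 11.20, 11.25 and 11.59 in sickle. Control replicate 3 lay between sickle replicates 1 and 2, so the groups overlapped, and sickle replicate 3 was 0.34 above the next highest array. The difference was 0.29 ± 0.14 (adjusted p = 0.602), and 0.16 without replicate 3. The dimmer row of Xirp2, at only 4.83 to 5.79 over the arrays, had 0.41 ± 0.21. The change of Xirp2 minus that of Xirp1 was 0.36, 0.47 and 0.95 in sickle replicates 1, 2 and 3, and 0.0016, -0.23 and 0.23 in control replicates 1, 2 and 3. It was higher in all sickle arrays than in any control array, and the mean over sickle replicates 1 and 2 was 0.41. The pair joins the lowest and the highest difference of all members and was chosen after these were seen. A separation of the groups largely follows from that choice and has no test.

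Nrap, nebulin-related anchoring protein, which acts in myofibril assembly and at the intercalated disc, had 11.43 ± 0.03 in control and 11.54 ± 0.04 in sickle (SD, n = 3). The groups did not overlap (0.12 ± 0.09, and 0.13 without replicate 3). Desmin (Des), the muscle intermediate filament protein, had 0.0091 ± 0.12 with 12.40 in sickle replicate 3 as its highest value, and -0.10 without that array. Alpha-B-crystallin (Cryab), a small heat shock protein that guards desmin and titin, had -0.18 ± 0.12, and control replicate 1 at 11.51 lay within the sickle range. Cmya5, myospryn, a desmin-binding protein, had -0.04 ± 0.12, and 0.06 without that array.

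**Figure D4:**
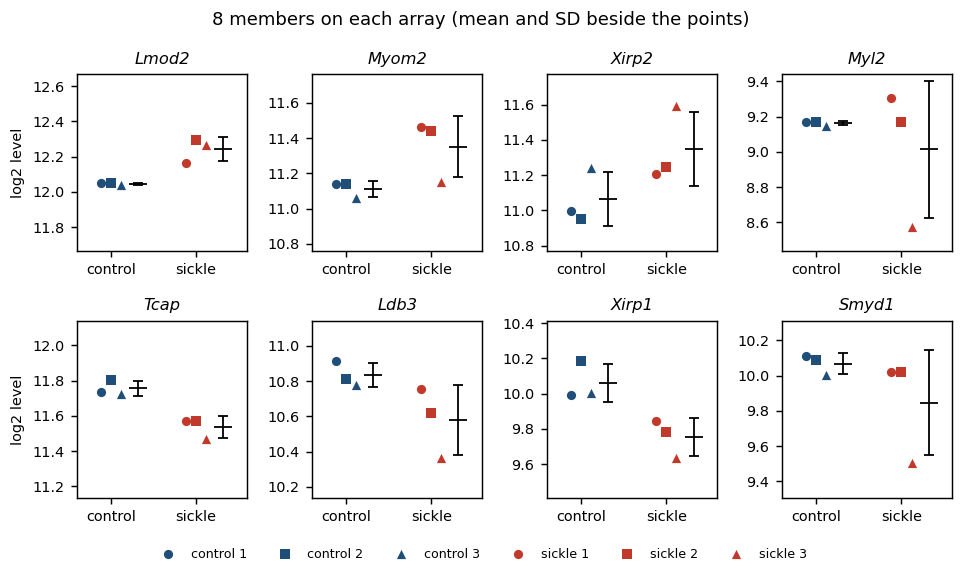
Log2 level (vertical axis, each panel spanning 1 log2 unit) of 8 members on the 3 control (blue) and 3 sickle (red) arrays, the shape giving the replicate number, with the group mean and SD (n = 3) beside the points. Lmod2 and Myom2 are higher and Tcap, Ldb3 and Xirp1 lower in all 3 sickle arrays, Xirp2 overlaps, and Myl2 and Smyd1 have 1 low array, sickle replicate 3.

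Enzymes of myofibril assembly and turnover were measured by 3 genes, and the myofibril's oxygen and energy supply by 3 more, and 0 passed. Smyd1, a muscle methyltransferase needed for myofibril assembly, had 10.11, 10.09 and 10.00 in control and 10.02, 10.02 and 9.50 in sickle. Replicates 1 and 2 lay within the control range and replicate 3 was 0.50 below every other array, so the difference of -0.22 ± 0.15 became -0.05 without it. Trim54, also called MuRF3, a ubiquitin ligase that stabilises microtubules in muscle, had 9.54, 9.64 and 9.68 in control and 9.51, 9.43 and 9.35 in sickle. The groups did not overlap (-0.19 ± 0.09, adjusted p = 0.612), and its dimmer row had -0.23 ± 0.11. Trim63, also called MuRF1, the ubiquitin ligase that marks myosin for degradation in atrophy, overlapped (0.05 ± 0.12, and 0.12 without replicate 3).

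Myoglobin (Mb), the oxygen store of muscle, differed by -0.04 ± 0.08. Creatine kinase transcripts also overlapped. Ckm, the cytosolic form bound at the M-band, had 11.34, 11.44 and 11.41 in control and 11.49, 11.38 and 11.16 in sickle. Its difference was -0.06 ± 0.11, and 0.04 without sickle replicate 3. Ckmt2, the mitochondrial form, had -0.03 ± 0.11, and 0.05 without that array.

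Other genes of the myofibril, from lists that share no gene with the 35 members, gave the same count of 0 past the test. Of 21 other contractile genes measured, 0 passed in either direction, and 2 had an unadjusted p under 0.05 (9.52%, against 8.69% of all genes). Myh6, the adult alpha-myosin heavy chain, had 13.23 ± 0.06 in control and 13.21 ± 0.04 in sickle (difference -0.02 ± 0.09, and 0.0028 without sickle replicate 3). Its fetal counterpart Myh7 had 8.28, 9.10 and 9.06 in control and 9.78, 8.52 and 10.89 in sickle (0.92 ± 0.54). The groups overlapped, and the difference was 0.33 with sickle replicate 3 left out. Skeletal actin (Acta1) also overlapped (0.36 ± 0.29, and 0.06 without sickle replicate 3). Myom3, the third myomesin, was higher without overlap, with 5.05 to 5.18 in control and 5.35 to 5.73 in sickle. Its difference was 0.41 ± 0.12 (limma adjusted p = 0.439), and 0.51 without sickle replicate 3. Nebulin (Neb) was lower without overlap, with 6.78 to 7.25 in control and 6.07 to 6.67 in sickle (-0.65 ± 0.19, adjusted p = 0.441; -0.47 without that array). Tmod4, a tropomodulin of skeletal muscle, had -0.40 ± 0.20, and -0.16 without that array.

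Of 19 other Z-disc and I-band genes 0 passed and 1 had an unadjusted p under 0.05 (5.26%, against 8.69% of all genes). Their median was -0.02, and -0.013 without sickle replicate 3. The difference from the Z-disc members was not tested. Ankrd1, a stretch-responsive titin-binding protein, had 0.04 ± 0.12, and -0.05 without sickle replicate 3. Actn4, a non-muscle alpha-actinin, had 0.36 ± 0.12 (0.25 without that array), and Ankrd23, another titin-binding ankyrin repeat protein, 0.21 ± 0.09, both higher without overlap. Klhl41, which stabilises nebulin, had -0.19 ± 0.09, and Ankrd2 had -0.21 ± 0.11, both lower without overlap. Ankrd2 was dim, at 5.47 to 5.92 over the arrays.

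Of 15 other linkage genes measured, 0 passed and 3 had an unadjusted p under 0.05 (20%, against 8.69% of all genes). Their median was -0.014, and -0.0065 without sickle replicate 3. Ank1 had the largest difference (0.73 ± 0.14, adjusted p = 0.221), with 5.84 to 6.10 in control and 6.51 to 6.96 in sickle. Its product is the ankyrin of the red-cell membrane, with a short form in muscle, and red-cell markers were higher in the same arrays; their part in its difference was not tested. Itga7, the laminin-binding integrin of muscle, had -0.30 ± 0.10, dystrophin (Dmd) had -0.22 ± 0.09 and dystrobrevin (Dtna) had -0.14 ± 0.09, each lower without overlap.

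Of 17 other turnover and chaperone genes 0 passed and 3 had an unadjusted p under 0.05 (17.6%, against 8.69% of all genes). Their median was -0.12, and 0.01 without sickle replicate 3. Hsp90aa1, an inducible HSP90 chaperone, had 8.42 to 9.04 in control and 9.33 to 9.77 in sickle (0.74 ± 0.18, adjusted p = 0.375). Its muscle co-chaperone Unc45b, which folds myosin heads, had 8.98 to 9.18 in control and 8.49 to 8.90 in sickle (-0.38 ± 0.13, adjusted p = 0.504; -0.26 without that array). The 2 genes thus separated in opposite directions. Capn3, a muscle calpain that binds titin, had -0.38 ± 0.16, and Hspb1, a small heat shock protein, had -0.27 ± 0.13.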

How the data were processed

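The authors deposited 1 log2 value per transcript cluster and array, made with RMA (background correction, quantile normalisation and probe summary), per the submitters' processing notes. The sources used here do not state RMA's settings, scan dates or the build; that the scale is log2 follows from the range of the values. Of 25293 rows, 22030 had 1 gene symbol in the platform annotation, and the brightest row per gene left 21506 genes. Limma 3.58.1 in R 4.3.3 (lmFit, eBayes, group as the only term, two-sided, Benjamini-Hochberg over all genes) tested sickle minus control, with no filter on dim genes. The procedure was tested on simulated data. Standard errors and 95% intervals are limma's moderated ones and are not adjusted for the number of genes. The number of arrays limits the precision.

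Members, role groups and gene lists were chosen with earlier results of these data known. All 35 members are named. Every array's value is given for members with an unadjusted p under 0.05 with or without sickle replicate 3, the largest difference of a role group or the widest gap of 1 array, and for the best known members. Up to 4 genes of each other list are named, by smallest p, and Myh6, Myh7, Acta1 and Ankrd1 always. Alternatives were other variance models, a filter on dim genes, other scalings, weights for arrays, a block for the replicate number, other rows of a gene and leaving out each array. Figures were drawn with matplotlib 3.10.9.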

Additional observations from a re-analysis of the deposited data

How the results depend on the processing

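In all 15 alternatives 0 of the 35 members passed the adjusted test, and the smallest adjusted p of any member was 0.312 (Xirp1 with dim genes left out). Over all genes the count was 39; with the replicate number as a block it was 12, and leaving out 1 array gave 4 to 36. Same-numbered arrays deviated together with correlations of 0.11, -0.05 and 0.05, and differently numbered ones with -0.12 to 0.07. The labels name no pairing, and with 3 arrays per group these values cannot decide whether the numbers pair the mice. The block left 2 members with an unadjusted p under 0.05 (Xirp1 and Xirp2). That count was 7 with a variance that follows the mean level, and 0 to 3 with 1 array left out. The median over all members was between -0.10 and 0.0034 and that of the turnover and assembly enzymes between -0.23 and -0.049 with 1 array left out, each at its upper end without sickle replicate 3. The median of the Z-disc group kept its sign in all 15, between -0.20 and -0.096. That of the thick filament group kept its sign too. It was only 0.0012 without sickle replicate 2 and 0.012 without control replicate 3. The thin filament median turned its sign in 4. That of the linkage members turned with a second quantile normalisation, without control replicate 2 and without sickle replicate 2. The oxygen and energy median turned with array weights and without sickle replicate 3.

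Of 525 single-gene values under the alternatives, 31 turned their sign, in 12 members with differences of at most 0.15; the cause was not tested. With 1 array left out, the ranges were -0.072 to 0.026 for Tnnc1, -0.29 to 0.073 for Myl2, -0.13 to 0.079 for Myl3, -0.036 to 0.062 for Myom1, -0.13 to 0.067 for Nebl, -0.21 to 0.20 for Myot, -0.13 to 0.27 for Pdlim5, -0.10 to 0.10 for Des, -0.10 to 0.059 for Cmya5, -0.047 to 0.12 for Trim63, -0.13 to 0.038 for Ckm and -0.083 to 0.052 for Ckmt2. Array weights, which gave sickle replicate 3 a weight of 0.36, turned Tnnc1 to 0.0095, Myl3 to 0.025, Nebl to 0.020, Myot to 0.046, Pdlim5 to -0.043, Des to -0.053, Cmya5 to 0.022, Ckm to 0.0065 and Ckmt2 to 0.016. Centring arrays on their median turned Myom1 to -0.013 and Des to -0.016, and a second quantile normalisation turned Tnnc1 to 0.040. The replicate block moved no member's sign.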
